A study of Arabidopsis thaliana with 12 samples.

Results

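The transcripts of the Arabidopsis mitochondrial genome were taken as every row of the 3 deposited tables whose identifier starts with ATMG and whose mean normalized count was above 0 in at least 1 of the 4 groups used here. They were 79 of 146 mitochondrial rows, in tables that together list 33687 rows, and the other 67 mitochondrial rows were at 0 in every group. Whole seedlings of Arabidopsis thaliana, 10 days old, untreated and grown on vertical plates of half-strength medium, gave poly(A)-selected RNA for sequencing, with 3 libraries in each group. The groups were doa10a/b RNAi 4-2 (an Atdoa10a T-DNA insertion mutant that also carries an RNAi construct against exons 1 and 2 of AtDOA10B), amiNAA10 (an artificial microRNA against NAA10, the catalytic subunit of the NatA N-terminal acetyltransferase), naa20 (a mutant of the catalytic subunit of NatB) and Col-0, the wild-type accession. Each group other than Col-0 is 1 line, and the seedlings of a library were pooled.

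Plant mitochondria keep a small genome of their own that encodes some subunits of the respiratory complexes (nad genes for complex I, cob for complex III, cox for complex IV, atp for ATP synthase), proteins of cytochrome c maturation (ccm), ribosomal proteins, ribosomal and transfer RNAs, and many open reading frames of unknown function. All other subunits of the same complexes come from nuclear genes. Mature plant mitochondrial mRNAs carry no stable poly(A) tail, and a tail added to them marks the RNA for decay, so selection on poly(A) takes up few of these transcripts and a count here does not measure the mitochondrial RNA pool.

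The tables pair no gene names with identifiers. Names were taken from notes of the RefSeq annotation (TAIR10.1) on chromosome 2, where a long insertion of mitochondrial DNA holds near-identical copies of mitochondrial genes and each note names the best matching mitochondrial protein. These notes gave 53 of the 146 rows a copy, and 18 of them a name in the classes of interest: 3 nad, 1 cob, 2 cox, 5 atp, 3 ccm and 4 ribosomal protein rows. The other 93 rows, with 50 of the 79 members, have no name in the sources used here and are given by identifier alone. Further genes of these classes, and ribosomal and transfer RNA genes, may be among them. For these 93 rows no copy was searched. The copies matter for the counts, because a read from a stretch that is identical in both places cannot be assigned to either. Of the pairs below, the first and the third are shown because their copies held the highest counts among copies of the 18 named rows, and the second because it differs from its copy at a single base. In the first and second pair that base lies beside the RefSeq gene (atp1 at bases 67098 to 68621, nad1 at bases 82937 to 83321 of the mitochondrial sequence), within the longer stretch that matches the chromosome 2 locus, so over the annotated gene stretch itself no base differed. Capitals mark a base that differs between the mitochondrial sequence and the nuclear copy, and all sequences are from RefSeq, build TAIR10.1, whose mitochondrial sequence may differ from the one in the authors' build.
ATMG01190 (ATP synthase subunit 1), flanking stretch, mitochondrion, bases 69183 to 69212, minus strand: cgccccctttcctcCgcaacttacacatcc
AT2G07698, its copy, chr2:3361914-3361943, plus strand: cgccccctttcctcTgcaacttacacatcc
ATMG01275 (NADH dehydrogenase 1A), flanking stretch, mitochondrion, bases 82844 to 82873, minus strand: ccgcaggtgttgaaCgatctactctacaca
AT2G07785, its copy, chr2:3348472-3348501, plus strand: ccgcaggtgttgaaTgatctactctacaca
ATMG01080 (F0-ATPase subunit 9), start of RefSeq atp9, mitochondrion, bases 271156 to 271185, minus strand: atgttagaaggtgcaaaatcaataggtgcc
AT2G07671, its copy, chr2:3252051-3252080, minus strand: atgttagaaggtgcaaaatcaataggtgcc
The first pair differed at 1 of 2665 aligned bases and the second at 1 of 902, and the third was identical over all 776 bases of the copy.

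The groups were checked on the genes they target. AtDOA10A averaged 841 normalized counts in the libraries labelled doa10a/b RNAi 4-2, against 2272 in Col-0, whereas AtDOA10B averaged 511 in them, against 282 in Col-0. NAA10 averaged 123 in amiNAA10 and 885 in Col-0. NAA20 averaged 680 in the libraries labelled naa20 and 263 in Col-0, which, like AtDOA10B, goes against the label, so directions below are of the libraries so labelled. Whether reads of the RNAi construct add to AtDOA10B was not tested. The column sums were between 20338996 and 21639733 normalized counts. Of the 4 nuclear ribosomal RNA genes in the tables, a sign of how much RNA without a poly(A) tail was carried along, AT3G41979 averaged 223 normalized counts in the RNAi-labelled libraries, 198 in amiNAA10 and 76.4 in the naa20-labelled libraries, against 17.2, 17.2 and 25.5 in the Col-0 libraries. AT3G41768, which held the most counts of the 4, averaged 13600, 6564 and 4188 in the same 3 lines and 12871 in Col-0. It was thus lower in amiNAA10 and the naa20-labelled libraries and near Col-0 in the RNAi-labelled ones. AT2G01010 averaged 22.5, 63.1 and 34.8 in the 3 lines and 67.0 in Col-0. AT2G01020 averaged 10.6, 54.4 and 29.5 in them and 33.0 in Col-0. The 4 genes did not move in 1 direction. Their part in the results below was not tested.

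Mitochondrial transcripts took a minute share of the reads. Summed over the 79 members, the mean normalized counts were 1883 in the RNAi-labelled libraries, 1402 in amiNAA10, 1505 in the naa20-labelled libraries and 1991 in Col-0. As shares of all normalized counts these were 0.00914%, 0.00648%, 0.00696% and 0.00979%, in that order. Transcripts of the plastid genome (133 rows), the other organelle genome, summed to 2726, 1776, 1602 and 2508 normalized counts in the same order. Fewer mitochondria per cell, less RNA per mitochondrion and a different share of tailed RNA cannot be told apart in such bulk samples. The same holds for a different carry-over of RNA without a poly(A) tail.

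**Figure D1:**
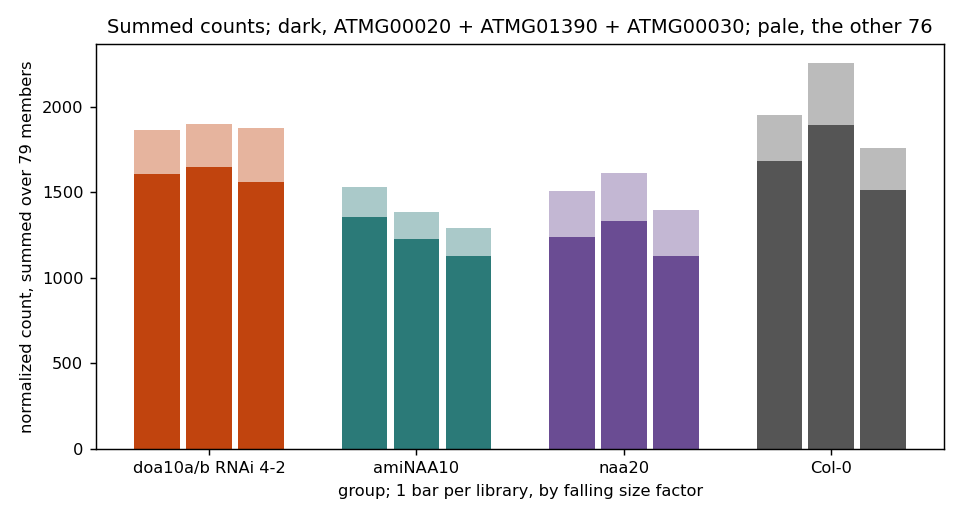
Summed normalized counts of the 79 mitochondrial members in each library (y axis, counts), with the libraries of a group side by side by falling size factor; dark parts are ATMG00020, ATMG01390 and ATMG00030, pale parts the other 76 members. The sums were 1291 to 1532 in amiNAA10 and 1398 to 1611 in the naa20-labelled libraries, below the 1762 to 2256 of Col-0, and the RNAi-labelled libraries, at 1868 to 1902, lay inside the Col-0 range.

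The deposited means were resolved into reads per library. A mean of 3 libraries is a sum of whole reads, each worth a fixed step set by its library's size factor, and for every member above 0 exactly 1 combination of reads gave the printed mean. The libraries are therefore known by the order of their size factors (0.914 to 1.13) and not by replicate number. The members summed to 1718 to 1920 reads per library in the RNAi line, 1346 to 1739 in amiNAA10, 1383 to 1607 in the naa20-labelled libraries and 1726 to 2236 in Col-0.

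A few rows took nearly all of these reads. ATMG00020, ATMG01390 and ATMG00030 together held 85.3% of the members' counts in the RNAi-labelled libraries, 88.2% in amiNAA10, 82.0% in the naa20-labelled libraries and 85.1% in Col-0, and none of them has a noted copy on chromosome 2. These rows have no name in the sources used here, which do not tell whether they are ribosomal RNA or mRNA. Changes in their counts, or in the summed share, therefore cannot be read as changes in mitochondrial mRNA. The median member had a mean of 1.09, 0.933, 1.35 and 1.35 normalized counts in the same order. Only 23 of the 79 members had a read in all 12 libraries, 48 were above 0 in every group, and 19 stayed below a mean of 1 in every group. The number of members above 0 was 68 in the RNAi-labelled libraries, 59 in amiNAA10, 69 in the naa20-labelled libraries and 73 in Col-0. Counts were not divided by gene length, which the tables do not give, so they say how many reads a row took and do not rank genes by expression.

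**Figure D2:**
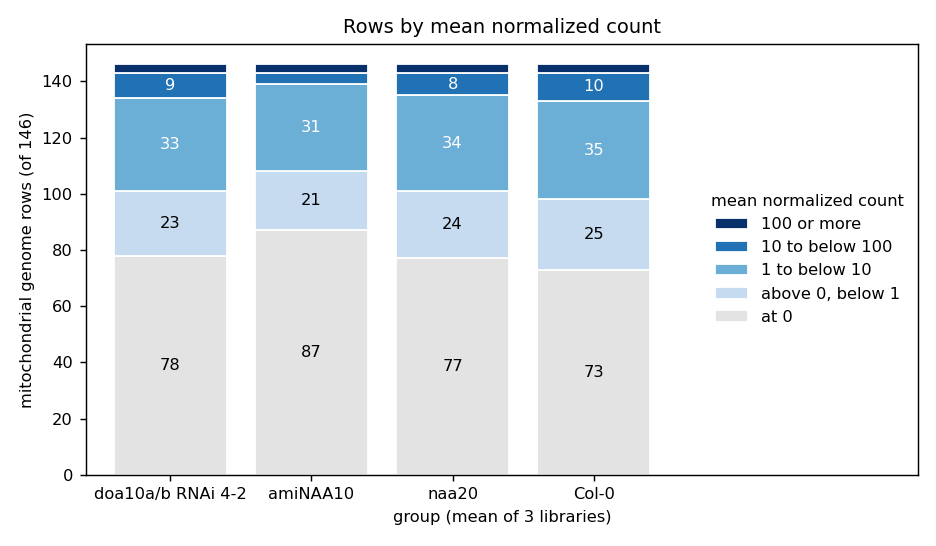
Number of the 146 mitochondrial genome rows (y axis) in each range of mean normalized count, for the 4 groups (x axis, mean of 3 libraries each). The rows at 0 were 78 in the RNAi-labelled libraries, 87 in amiNAA10, 77 in the naa20-labelled libraries and 73 in Col-0, and 3 rows reached 100 in every group.

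The named respiratory genes had few or no reads in their mitochondrial rows. Of the rows noted as atp, for subunits of ATP synthase, ATMG01080 (F0 subunit 9, which forms the rotor ring) was the highest. It had 19.5, 16.8 and 23.0 normalized counts in the RNAi-labelled libraries, 8.81, 5.41 and 7.67 in amiNAA10, 16.0, 13 and 19.2 in the naa20-labelled libraries, and 24.5, 30.3 and 18.4 in Col-0. All 3 amiNAA10 libraries lay below every library of the other groups. ATMG01090, described as ATP synthase 9, averaged 6.12 ± 1.10 in the RNAi-labelled libraries, 1.51 ± 0.477 in amiNAA10, 5.31 ± 2.64 in the naa20-labelled libraries and 7.79 ± 0.632 in Col-0 (SD, n = 3 each). Its copy aligned over only 59.3% of the copy's length, and no RefSeq mitochondrial gene was assigned to that stretch. Whether ATMG01090 encodes a subunit 9 was not tested. ATMG00410 (subunit 6, which is part of the proton channel) averaged 2.36, 1.52, 5.33 and 2.90 in the same order, with 0.941, 12 and 3.03 in single naa20-labelled libraries, so that group's mean rested on 1 library. ATMG00480 (subunit 8) and ATMG01190 (subunit 1, part of the catalytic head) had means of 1.35 and 0.975 at most.

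In the noted rows of the other classes the counts were lower still. Of the cox rows, for cytochrome c oxidase, ATMG00730 (subunit 3) averaged 5.07 ± 1.64 in the RNAi-labelled libraries, 2.75 ± 1.61 in amiNAA10, 7.91 ± 3.57 in the naa20-labelled libraries and 5.23 ± 0.771 in Col-0 (SD, n = 3 each). ATMG01280, described as subunit II-like, averaged 0.648, 1.2, 2.95 and 2.03 in the same order. Of the 3 rows noted as nad, for NADH dehydrogenase, only ATMG01320 (subunit 2B) had reads. It had 1 to 3 reads in single libraries of the RNAi line and at most 3 reads in any library. Of the 3 rows noted as ccm, ATMG00180 averaged 0.365, 1.89, 1.97 and 2.04. ATMG00960 averaged 0.365, 1.53, 0.985 and 2.29, and both had libraries at 0. Of the 4 rows noted as ribosomal proteins only ATMG00980 (S12/S23 family) had reads, with a mean of 0.961 at most. ATMG00560, noted as a nucleic acid-binding OB-fold-like protein and so not counted in that class, overlaps RefSeq rpl2, a gene for a protein of the large ribosomal subunit, and averaged 3.73, 2.10 and 2.89 in the 3 lines and 3.57 in Col-0. The single row noted as cob, ATMG00220 for apocytochrome b, had 0 reads in all 12 libraries. In 1 library taken alone, 0 reads allow an expected count of up to 3, and over 12 libraries the limit is lower. At these counts no difference between groups was detectable for a single row noted as cox, nad, cob, ccm or ribosomal protein. None of these noted rows reached the mean of 10 that was required for a comparison. The 93 rows without a note, of which 12 had a mean of at least 10 in Col-0, were given no class. Genes of these classes among them are not covered by this statement. Of the 29 noted open reading frames without a name, 15 were members, and the highest in Col-0, ATMG01330, averaged 4.40, 5.82 and 7.14 in the 3 lines and 7.04 in Col-0.

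For several named genes the copy on chromosome 2 held the reads. The copy of ATMG01190, AT2G07698, had 21.4, 18.8 and 16.4 normalized counts in the RNAi-labelled libraries, 13.2, 11.7 and 11.5 in amiNAA10, 21.6, 27.1 and 25.3 in the naa20-labelled libraries and 22.6, 23.2 and 20.4 in Col-0, although the mitochondrial row stayed at or below a mean of 0.975. The cob copy AT2G07727, identical to the mitochondrial sequence over all 3243 bases, averaged 8.26, 2.14 and 6.94 in the 3 lines and 4.14 in Col-0. The reverse held for ATMG00410, whose identical copy AT2G07741 had no read in any library. AT2G07671, the identical copy of ATMG01080, averaged 34.3, 17.7 and 39.2 in the 3 lines and 32.2 in Col-0, so the reads of subunit 9 were split over both loci. AT2G07715, the copy of ATMG00560, averaged 31.1, 36.1 and 37.3 in the 3 lines and 34.8 in Col-0, more than its mitochondrial row in every group. Over all 55 copies, 72.4% of the counts of copies and their mitochondrial rows stood at the copies in the RNAi-labelled libraries, 77.2% in amiNAA10, 74.0% in the naa20-labelled libraries and 69.1% in Col-0. Rows at 0 in every group were 24 of 53 with a noted copy (45.3%) and 43 of 93 without one (46.2%). These shares cannot show whether a copy matters, because the rows without a note were not searched for copies. Which locus a read of such a pair came from was not tested, and the values of named rows with a copy are uncertain for this reason. Rows without a note may have copies too, so the same limit can hold for them.

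**Figure D3:**
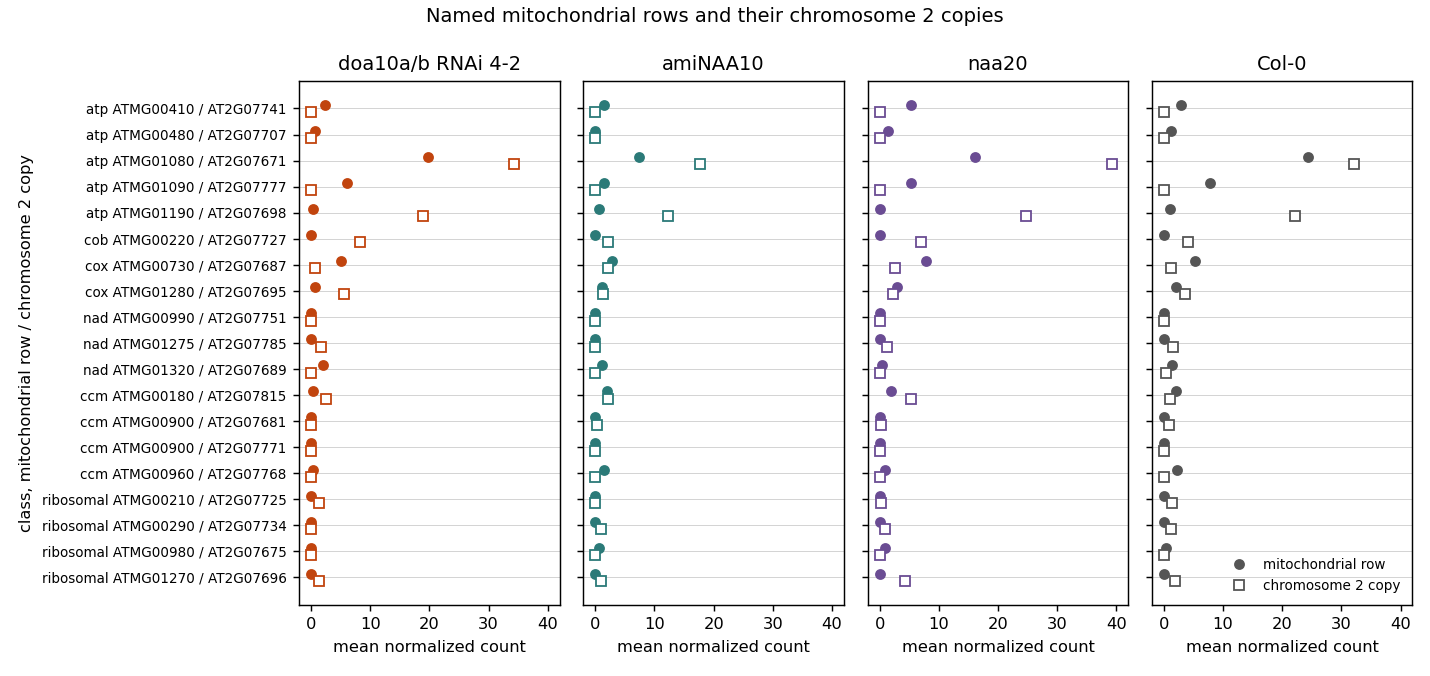
Mean normalized counts (x axes) of the 18 named mitochondrial rows (filled circles) and of their copies on chromosome 2 (open squares), in 1 panel per group. The subunit 9 pair (ATMG01080 and AT2G07671) and the copy AT2G07698 of ATP synthase subunit 1 held the highest counts in each panel, and most other rows and copies were near 0.

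Each line was compared with Col-0, and the 3 comparisons share the same 3 Col-0 libraries. The question is whether loss of DOA10 E3 ligases or of the NatA or NatB acetyltransferase goes with other levels of mitochondrial transcripts. Log2 ratios are of mean normalized count + 1, for genes with a mean of at least 10 in the higher of both groups, which 13 of the 79 members passed in each comparison, and the other 66 were too low. In the amiNAA10 and naa20 comparisons the line and Col-0 come from tables that were normalized separately, so the ratios were centred on the median of all genes (0.21 and 0.10 on the log2 scale). The Col-0 libraries used here share a table with the RNAi line, whereas the tables of the acetyltransferase lines set them against Col-0 libraries of another series, not used here, and whether these lines and the Col-0 libraries used here were grown and sequenced together is not given in the sources used here. A difference between experiments and an effect of amiNAA10 or naa20 cannot be told apart. As a test added after the data were seen, limma was fitted to the 6 recovered libraries of a comparison, with Benjamini-Hochberg adjustment over all genes tested. The study's methods call the replicates biological, and the p-values measure the spread between these libraries.

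In the libraries labelled doa10a/b RNAi 4-2 no mitochondrial transcript passed the test against Col-0. ATMG00020, which took the most reads, had 798, 815 and 800 normalized counts in the RNAi-labelled libraries, against 882, 967 and 849 in Col-0, and the groups did not overlap. Its log2 difference was -0.16 ± 0.07 (SE, limma adjusted p = 0.279). ATMG01390 had 674, 683 and 624 in the RNAi-labelled libraries, against 639, 777 and 527 in Col-0, with full overlap. The lowest ratio was that of ATMG00090, with 15.6, 14.9 and 10.9 in the RNAi-labelled libraries and 20.8, 21.2 and 22.5 in Col-0, a log2 difference of -0.62 ± 0.28 (SE, limma adjusted p = 0.312). The highest was that of ATMG01360, with 11.7, 13.9 and 41.6 against 16.3, 26.2 and 8.17 in Col-0, a limma difference of 0.30 that turned to -0.25 without the RNAi-labelled library at 41.6.

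The median log2 ratio of the 13 members was -0.16, beside 0.00 over all 20311 genes that passed the same filter. Of the 13 ratios, 9 were below 0, beside 50.5% of all genes. Of these 13 members, 1 had passed the filter through Col-0 alone and 0 through the RNAi-labelled libraries alone. None of the members passed 2-fold, beside 0.995% of all genes (0.443% higher and 0.551% lower). By limma 0 of 13 members passed an adjusted p of 0.05, beside 2.10% of 19165 genes (1.03% higher and 1.07% lower), and 1 had an unadjusted p under 0.05. The libraries of 3 members, ATMG00020, ATMG00090 and ATMG01170, lay wholly below Col-0 and those of 0 wholly above, beside 10.7% and 10.6% of all genes. The limma intervals leave room for change in most rows. For ATMG01370 the 95% interval of the log2 difference ran from -1.17 to 0.86.

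In amiNAA10 all 13 members had lower ratios than the median gene, beside 50% of all genes by construction. Of the 13, 6 had passed the filter through Col-0 alone and 0 through amiNAA10 alone, which favours lower ratios. ATMG00020 had 743, 574 and 598 normalized counts in amiNAA10, against 882, 967 and 849 in Col-0, a centred log2 difference of -0.71 ± 0.10 (SE, limma adjusted p = 0.000324). ATMG01390 had 486, 531 and 427 in amiNAA10, against 639, 777 and 527 in Col-0, a difference of -0.62 ± 0.13 (SE, limma adjusted p = 0.00355). The amiNAA10 libraries were below those of Col-0 for the first row as deposited, and for the second once the centring was applied. ATMG00030 had 128, 120 and 102 in amiNAA10 and 160, 149 and 136 in Col-0, a difference of -0.56 ± 0.14 (SE, limma adjusted p = 0.00842), and this call was lost without the centring, at -0.35.

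The largest falls were in rows with few reads. ATMG01080, ATMG01170, ATMG00160, ATMG01370 and ATMG00690 had means below 10 in amiNAA10 and passed the filter through Col-0 alone, which favours lower values. ATMG01080, the subunit 9 gene of ATP synthase whose library values are given above, differed by -1.81 ± 0.34 (SE, limma adjusted p = 0.00232), and its copy AT2G07671 by -1.02 ± 0.28 (SE, limma adjusted p = 0.0148). ATMG01170 had 4.41, 6.32 and 5.75 normalized counts in amiNAA10, against 17.2, 19.2 and 16.3 in Col-0, a difference of -1.73 ± 0.36 (SE, limma adjusted p = 0.00357). In that row the groups did not overlap. ATMG00160 had 9.69, 3.61 and 2.88 in amiNAA10 and 13.6, 18.2 and 13.3 in Col-0, and its call (limma adjusted p = 0.0163) was lost without the third amiNAA10 library, with a difference of -1.38 in place of -1.67. ATMG01370 had 3.52, 3.61 and 10.5 in amiNAA10, against 9.96, 17.2 and 12.2 in Col-0, a difference of -1.36 ± 0.47 (SE, limma adjusted p = 0.0450). That call was lost in 5 of 6 fits without a library, with differences of -1.52 to -1.13, and without the centring, at -1.15. ATMG00690 had 7.93, 9.93 and 0.959 in amiNAA10 and 14.5, 26.2 and 7.14 in Col-0, overlapping groups that did not pass the test (limma adjusted p = 0.0825).

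**Figure D4:**
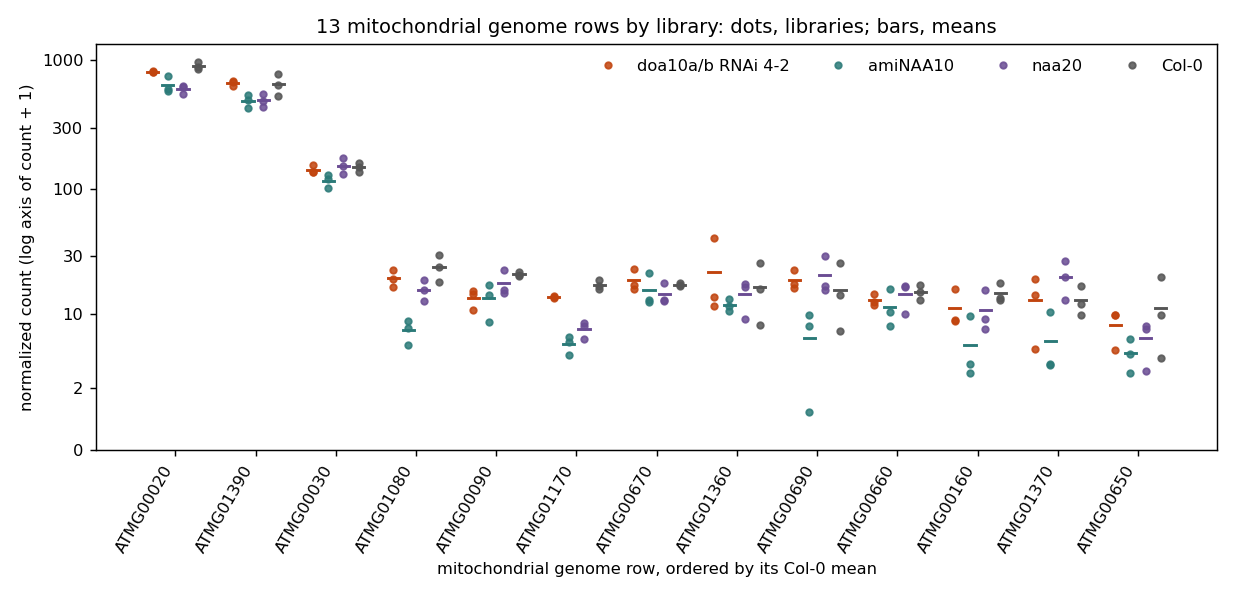
Normalized counts (y axis, log axis of count + 1) of the 13 mitochondrial rows with a mean of at least 10 in some group (x axis), with a dot for each library and a bar for the group mean, as deposited and not centred. ATMG00020, ATMG01390 and ATMG00030 stand above 100 in every library, and the amiNAA10 libraries of ATMG01080 and ATMG01170 lie below all Col-0 libraries.

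The median centred log2 ratio of the 13 members was -0.83, beside 0 over all 20454 genes by construction, and it was -0.63 without the centring. Of the 13, 6 were lower by at least 2-fold and 0 higher, beside 2.86% and 1.77% of all genes (4.63% in either direction). All 6 passed the filter through Col-0 alone, with a mean below 10 in amiNAA10, so their count is no support for a fall. The same 6 enter the median, which was -0.70 over 11 members with a mean over both groups of at least 10. By limma 7 of 13 members were lower and 0 higher, beside 17.1% and 14.9% of 15722 genes (32.0% in either direction), and ATMG01080, ATMG01170, ATMG00160 and ATMG01370 among them had likewise passed the filter through Col-0 alone. With a mean over both groups of at least 10, a filter that favours neither direction and was added later, 6 of 11 members were lower. No share of all genes was taken under that filter, so this count stands without a background. The libraries of 8 members lay wholly below Col-0 after centring and those of 0 wholly above, beside 24.0% and 22.2% of all genes. ATMG01080, ATMG01170, ATMG00160 and ATMG01370 are among these 8 as well.

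In the libraries labelled naa20 the pair of rows with the most reads was lower, and 1 row with few reads. ATMG00020 had 629, 620 and 544 normalized counts in the naa20-labelled libraries, against 882, 967 and 849 in Col-0, a centred log2 difference of -0.69 ± 0.08 (SE, limma adjusted p = 4.79e-05). ATMG01390 had 482, 539 and 435 in the naa20-labelled libraries, against 639, 777 and 527 in Col-0, a difference of -0.50 ± 0.12 (SE, limma adjusted p = 0.00914). The naa20-labelled libraries were below those of Col-0 for ATMG00020 as deposited, and for ATMG01390 only once the centring was applied. ATMG01170 had 8.47, 8.02 and 6.07 in the naa20-labelled libraries and 17.2, 19.2 and 16.3 in Col-0, a difference of -1.23 ± 0.34 (SE, limma adjusted p = 0.0179). It passed the filter through Col-0 alone, which favours a lower value. Its call was lost without the third naa20-labelled library (-1.10) or the first Col-0 library (-1.25).

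Other rows gave no call. ATMG00030 had 131, 176 and 150 in the naa20-labelled libraries, against 160, 149 and 136 in Col-0, with full overlap. ATMG01080 differed by -0.66 ± 0.30 (SE, limma adjusted p = 0.129). ATMG01370, with 13.2, 27.1 and 20.2 in the naa20-labelled libraries and 9.96, 17.2 and 12.2 in Col-0, and ATMG00690, with 30.1, 16.0 and 17.2 against 14.5, 26.2 and 7.14, had the highest ratios, and their libraries overlapped. The copies AT2G07671 and AT2G07698 differed by 0.20 ± 0.24 and 0.05 ± 0.26 (SE), neither called.

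The median centred log2 ratio of the 13 members was -0.33, beside 0 over all 20433 genes by construction. Of the 13 ratios, 11 were below 0, beside 50% of all genes. Of these 13 members, 2 had passed the filter through Col-0 alone and 0 through the naa20-labelled libraries alone. Of the 13, 1 was lower by at least 2-fold and 0 higher, beside 3.05% and 2.09% of all genes (5.14% in either direction), and that 1, ATMG01170, passed the filter through Col-0 alone. By limma 3 of 13 members were lower and 0 higher, beside 14.4% and 11.2% of 16008 genes (25.7% in either direction), so that with 13 rows the count of lower members stands near the background. The libraries of 5 members lay wholly below Col-0 after centring and those of 0 wholly above, beside 22.1% and 19.0% of all genes.

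**Figure D5:**
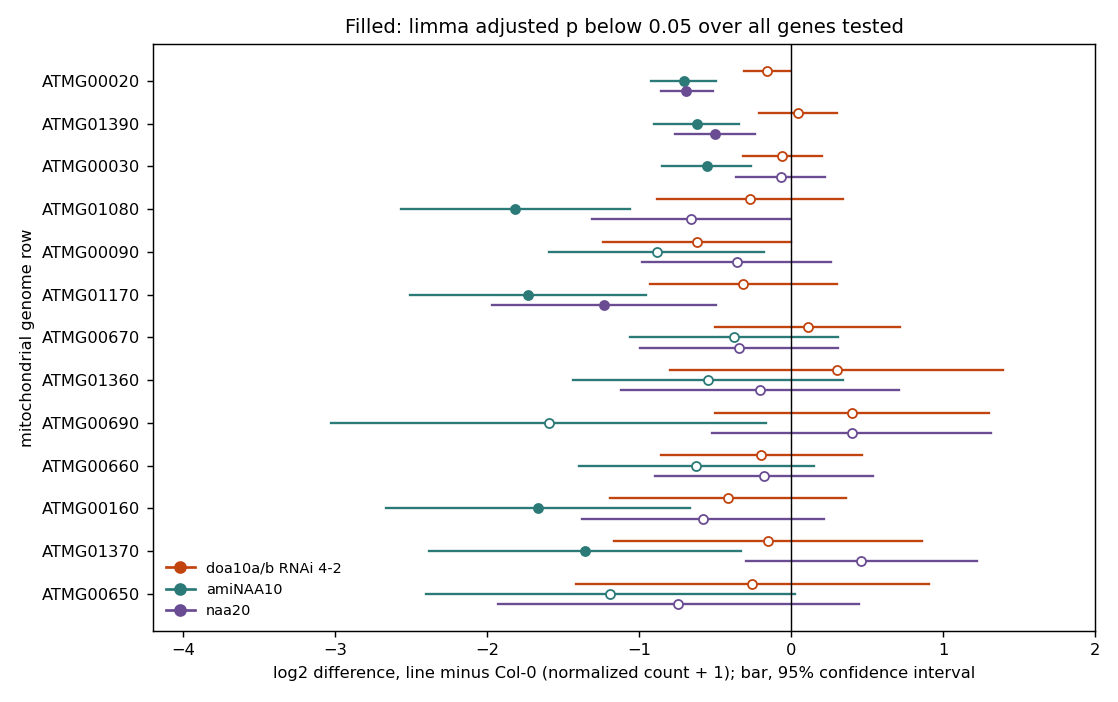
Log2 differences from Col-0 (x axis, normalized count + 1, centred for amiNAA10 and naa20) of the 13 rows (y axis) with 95% confidence intervals from limma, for the 3 lines from top to bottom within a row; filled circles have an adjusted p below 0.05 over all genes tested. No RNAi-labelled value is filled, 7 amiNAA10 and 3 naa20 values are, and all of those lie below 0.

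The 3 lines were also set against each other by limma. Between amiNAA10 and the naa20-labelled libraries, which were compared with no Col-0 library in the fit, although the centring was set against Col-0, 4 of 11 members were lower in amiNAA10 and 0 higher, beside 19.3% and 20.7% of 15480 genes (39.9% in either direction). These were ATMG01370 (-1.82 ± 0.45), ATMG00690 (-1.99 ± 0.55), ATMG01080 (-1.16 ± 0.38) and ATMG00030 (-0.49 ± 0.14, log2 difference ± SE). All but ATMG00030 had means below 10 in amiNAA10 and passed the filter through the naa20-labelled libraries alone, so the count is no support for a fall. ATMG00020 and ATMG01390 differed between these lines by -0.02 (95% interval -0.21 to 0.17) and -0.12 (-0.32 to 0.08). Against the RNAi-labelled libraries, 6 of 12 members were lower in amiNAA10 and 0 higher, beside 14.5% and 14.2% of 15696 genes (28.7% in either direction). Of these, ATMG00690, ATMG01080 and ATMG01170 passed the filter through the RNAi-labelled libraries alone, whereas ATMG00020, ATMG00030 and ATMG01390 had means above 100 in both groups. Against the same libraries 2 of 12 members, ATMG00020 and ATMG01390, were lower in the naa20-labelled libraries and 0 higher, beside 16.9% and 15.5% of 15971 genes (32.4% in either direction).

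Plastid transcripts moved in the same direction as the mitochondrial ones in both acetyltransferase comparisons. Of 39 plastid rows tested by limma, 14 were lower in amiNAA10 and 15 in the naa20-labelled libraries, and 0 were higher in either, beside 17.1% lower and 14.9% higher of all genes in amiNAA10 and 14.4% lower and 11.2% higher in the naa20-labelled libraries. The median log2 differences of the plastid rows were -0.64 and -0.66. In the RNAi-labelled libraries 0 of 46 plastid rows were called, beside 2.10% of all genes, with a median of 0.16. Plastid mRNAs, like mitochondrial ones, lack stable tails, and the part that a shared change in both organelles has in the mitochondrial falls was not tested.

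Nuclear genes that serve the mitochondrial genome were higher in amiNAA10, by a list chosen with earlier results known. Of 12 genes for mitochondrial transcription, RNA decay and DNA maintenance, 7 could be tested in amiNAA10, where 6 were higher and 0 lower, beside 14.9% and 17.1% of all genes, and their median difference was 0.57. They included AT1G71260, the DNA-binding WHIRLY 2 (0.76 ± 0.07, limma adjusted p = 2.89e-05), AT3G10140, the recombinase RECA3 (0.57 ± 0.08, limma adjusted p = 0.000414), AT3G24320, MSH1, which acts in organelle genome stability (0.42 ± 0.11, limma adjusted p = 0.0111), and AT4G14790, the RNA helicase SUV3 (0.27 ± 0.09, limma adjusted p = 0.0356). In the naa20-labelled libraries 1 of 10 was higher (RECA3) and 2 were lower, among them WHIRLY 2 at -0.39 ± 0.09 (limma adjusted p = 0.00665), counts near the 11.2% and 14.4% of all genes. In the RNAi-labelled libraries 0 of 12 were called, beside 2.10% of all genes. Of 9 genes for mitochondrial splicing and editing, 2 of 7 tested were higher in amiNAA10 and 0 lower, beside 14.9% and 17.1% of all genes. In the naa20-labelled libraries 0 of 8 were called, beside 25.7% of all genes in either direction. In the RNAi-labelled libraries 0 of 9 were called, beside 2.10%. With so few genes these counts stand near the background. Of 15 nuclear partner subunits of the same complexes, most had means too high to be resolved into libraries. The 5 tested in the RNAi-labelled comparison and the 3 in each other comparison were not called. The shares of all genes called were 2.10%, 32.0% in amiNAA10 and 25.7% in the naa20-labelled libraries, so these few genes show little. By their means 0 of 15 passed 2-fold in any line, beside 0.995%, 4.63% and 5.14% of all genes, with medians of 0.05, 0.12 and 0.16.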

How the data were processed

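Poly(A) RNA-seq of 12 libraries (4 groups of 3) was analysed from 3 deposited tables. Per the submitters' processing notes, the build was TAIR10, and TopHat2 (2.0.12) and Bowtie2 (2.2.3) were among the tools listed beside HTSeq (0.6.1) and DESeq (1.18.0). The paper's methods list other tools, so the aligner is not settled, and HTSeq's handling of reads with several matches is not given in the sources used here. The values used are signal values: mean normalized counts that the authors made by dividing counts by library size factors and averaging 3 libraries. The authors' own log2 fold changes, p-values, adjusted p-values and calls were not used, nor were 2 Col-0 columns of another series.

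Reads per library were recovered from each mean as the only whole-number combination of 3 library steps (means up to 3000 in the first table and 1000 in the others; 99.98% to 99.99% of the means searched gave a combination). Combinations were kept where fewer than 0.5 were expected by chance, a limit raised from 0.05 after the data had been seen, when a wider search for uneven libraries was also added. SDs, limma 3.58.1 (R 4.3.3, trend, log2 of normalized count + 1) and fits without a library rest on these recovered reads, and genes above the limits were not tested. The recovery and the fit were tested on simulated data. Copies were aligned with BLAST 2.17.0.

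Members, lists and named genes (in each class the highest and lowest in Col-0; in each comparison the 6 largest and 6 smallest ratios; all members of the nad, cob, cox, atp, ccm and ribosomal classes; the 4 targeted genes) were chosen with earlier results of these data known. Named genes outside this rule (chromosome 2 copies, nuclear ribosomal RNA genes and genes of the nuclear lists) were chosen after their values were seen, as were limma and its alternatives. Column sums of 20338996 to 21639733 normalized counts give the depth. Alternatives were other pseudocounts, filters, centring, scales and libraries left out.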

Additional observations from a re-analysis of the deposited data

Results flagged for a closer look

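The following differences between lines passed an adjusted p of 0.05 in limma over all genes (log2 differences of normalized count + 1, libraries recovered from the means). Between amiNAA10 and the naa20-labelled libraries they were ATMG00030 (-0.49), ATMG00690 (-1.99), ATMG01080 (-1.16) and ATMG01370 (-1.82). Between amiNAA10 and the RNAi-labelled libraries they were ATMG00020 (-0.55), ATMG00030 (-0.50), ATMG00690 (-2.0), ATMG01080 (-1.54), ATMG01170 (-1.42) and ATMG01390 (-0.67). Between the naa20-labelled and the RNAi-labelled libraries they were ATMG00020 (-0.53) and ATMG01390 (-0.55). In amiNAA10, ATMG00690, ATMG01080, ATMG01170 and ATMG01370 had means below 10, so each of their calls entered the test through the other line alone. In all 3 comparisons the lines come from tables normalized separately. Groups of 3 libraries are too small for a test of single libraries that stand apart.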

How the results depend on the processing

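In the libraries labelled doa10a/b RNAi 4-2, the median log2 ratio of -0.16 was -0.009 over all 74 members above 0, -0.059 over the 3 members with a mean of at least 50, and between -0.245 and -0.106 with 1 library left out. The count past 2-fold, 0, was 6 (all lower) without the filter, 1 at 1.5-fold and 0 to 1 with 1 library left out. The share of all counts relative to Col-0, 0.934, was 0.975 without the highest member and 0.922 without the top 3. In amiNAA10 the median of -0.83 was -0.873 with no pseudocount, -0.715 with a pseudocount of 5 and -0.578 over all 76 members above 0. It was -0.647 at a mean of at least 50 and -0.627 without centring. It was -0.709 when means were scaled by the column sums and -0.378 when the pseudocount was scaled up with them. Over 11 members with a mean over both groups of at least 10 it was -0.700. In amiNAA10 it was -0.767 without members that have a noted chromosome 2 copy, and -1.013 to -0.766 with 1 library left out. Its count of 6 past 2-fold was 18 without the filter, 0 at a mean of at least 50 or with the larger pseudocount on the column-sum scale, 10 at 1.5-fold and 5 to 7 with 1 library left out. Its limma count of 7 was 3 of 3 at a mean of at least 50 and 12 of 76 without a filter. No share of all genes was taken under either of these settings, so the counts stand without a background. The share ratio of amiNAA10, 0.662, was 0.527 without the top 3. In the naa20-labelled libraries the median of -0.33 was -0.142 over all 77 members above 0, -0.521 at a mean of at least 50, -0.235 without centring, -0.163 with the larger pseudocount on the column-sum scale and -0.604 to -0.337 with 1 library left out. Its count of 1 past 2-fold was 0 with a pseudocount of 5, at a mean of at least 50 or on the column-sum scale with the larger pseudocount, 7 without the filter (3 higher, 4 lower), 4 at 1.5-fold and 1 to 2 with 1 library left out. Its share ratio of 0.711 was 0.781 without the highest member and 0.859 without the top 3. No median changed sign under any alternative run, and the cause of the changes was not tested beyond the members that each filter leaves.

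Among single rows in amiNAA10, ATMG00090 passed limma's threshold with a pseudocount of 5, ATMG00650 without the third Col-0 library, and ATMG00690 without the second amiNAA10 or the third Col-0 library. The alternatives for the column-sum scale with the larger pseudocount, the mean over both groups, the copies, the top 3 members and limma were chosen after seeing the data. Leaving out members that share a gene name, and the share without ribosomal and transfer RNA genes, were not run, because the sources used here do not mark them. No paired analysis was possible because the tables hold group means and the recovered libraries carry no replicate number. Rows below about 10 counts limit the report: only large differences were detectable there.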
